A study of Mus musculus with 4 samples.

Results

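The genes described here are 42 components of T-cell receptor and pre-T-cell receptor signalling, listed by their known function: receptor chains, kinases, adaptors, lipid enzymes, exchange factors, transcription factors and ubiquitin ligases. Of the 42, 41 were measured, out of 19938 genes with a named probe set. *Lck* had no probe set with a single gene name in the array annotation used and was not analysed here. Each gene stands for 1 probe set, and for *Dgkz*, the only member with several, the brighter was taken. RNA of ILC87-Ik1-ER cells was hybridised to 4 Affymetrix expression arrays (Mouse Gene ST): 2 cell samples had been given 100 nM 4-hydroxytamoxifen (4OHT) for 24 h and 2 the vehicle, ethanol (EtOH). ILC87 is a single T-lymphoma line from the thymus of a mouse in which Lck-cre had deleted the floxed Ikaros gene (Ikarosf/f Lck-cre+). The labels give its strain as C57BL/6, whereas the study's methods place mice of this genotype on a mixed genetic background. All 4 samples carried the same MigR1 retrovirus, which encodes GFP and Ik1-ER, a fusion of full-length Ikaros with the hormone-binding part of the oestrogen receptor, and had been sorted for GFP. 4OHT moves Ik1-ER into the nucleus, so that the comparison asks which transcripts change within a day of Ikaros activity. Cells that lack Ik1-ER but were given 4OHT are not among the arrays, so that effects of the ligand and of Ikaros cannot be told apart.

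When a T-cell receptor binds its ligand, Src-family kinases phosphorylate the paired tyrosine motifs of the CD3 and ζ chains, and ZAP-70 docks there and is activated. ZAP-70 phosphorylates the scaffolds LAT and SLP-76, which gather phospholipase C-γ1, Tec-family kinases, exchange factors and adaptors into a signalosome that feeds the calcium–NFAT, Ras and PKC-θ–NF-κB branches. In developing thymocytes the pre-T-cell receptor, in which pre-Tα takes the place of the α-chain, uses the same machinery, and ubiquitin ligases, phosphatases and diacylglycerol kinases restrain it.

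Values are RMA expression values on a log2 scale, and a gene was said to rise or fall when the Benjamini-Hochberg adjusted p of limma, taken over all 35556 probe sets, was under 0.05. Over all genes 4.23% passed this test, 1.23% higher and 2.99% lower with 4OHT, and over all probe sets, named or not, 3.16% did. The 2 arrays of a treatment correlated at r = 0.996 (EtOH) and 0.994 (4OHT) across probe sets, which are not independent. The labels number the samples but do not state separate cultures, so that p-values here describe the spread between samples that may be technical replicates. T-lineage markers were bright: all 7 measured ones of 8 lay above the array medians of 7.11 to 7.16, and the log2 of their summed linear values was 15.33 to 15.35 with EtOH and 15.17 to 15.18 with 4OHT, with 1 lower (*Cd3d*). All 9 measured B-cell markers of 10 had means below those medians (summed level 9.05 to 9.11 with EtOH and 9.14 to 9.17 with 4OHT, none called). So had all 9 myeloid markers (9.28 to 9.29 and 9.34, with *Itgam* higher and *Lyz2* lower), and both measured erythroid markers of 5 (7.94 and 7.93, none called). Of 6 natural killer cell markers 5 were below the medians and *Gzma* was above them (mean 11.88), with a summed level of 11.70 to 11.89 and 11.91 to 12.30 and none called. Of double-positive thymocyte markers, 7 of 8 were measured, with 4 higher (*Cd4*, *Cd8a*, *Cd8b1* and *Ccr9*) and 1 lower (*Dntt*). *Rag1* and *Rag2* did not pass the test (log2 differences 0.21 and 0.006, adjusted p = 0.292 and 0.976). The summed level of the 7 was 13.26 to 13.28 on the EtOH arrays and 13.76 to 13.79 on the 4OHT arrays. The part of these markers' cells in the results below was not tested.

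After 24 h of 4OHT, 6 of the 41 measured signalling genes rose, 4 fell and 31 did not pass the test. The kinase gene *Txk*, the diacylglycerol kinase gene *Dgka* and the transmembrane adaptor genes *Trat1* and *Sit1* rose by more than 2-fold, and the adaptor gene *Skap1* and the GTPase gene *Rhoh* rose less. *Vav3*, an exchange factor gene, fell by more than 2-fold, and the kinase genes *Syk*, *Fyn* and *Tec* fell less. Thus 24.4% of the measured members were called, where 4.23% of all genes were, and 12.2% differed by at least 2-fold, where 1.38% of all genes did. The members were chosen with earlier results of these data known, so that these shares are no unbiased comparison. Most members were bright, and among the 10512 genes with a mean at or above the array medians 7.29% were called, while 8 of 38 members of that kind were. The members' median log2 difference was 0.036 (0.031 over all genes), with 24 positive and 17 negative values, and their median absolute difference was 0.27 (0.11 over all genes). The 2 4OHT arrays lay beyond the 2 EtOH arrays for 34 of 41 members, 19 above and 15 below, and for 56.6% of all genes. Among genes with a mean at or above the array medians this held for 64.3%, and for 32 of 38 members of that kind. In bulk RNA a change in the cells that express a gene and a change in RNA per cell cannot be told apart.

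**Figure D1:**
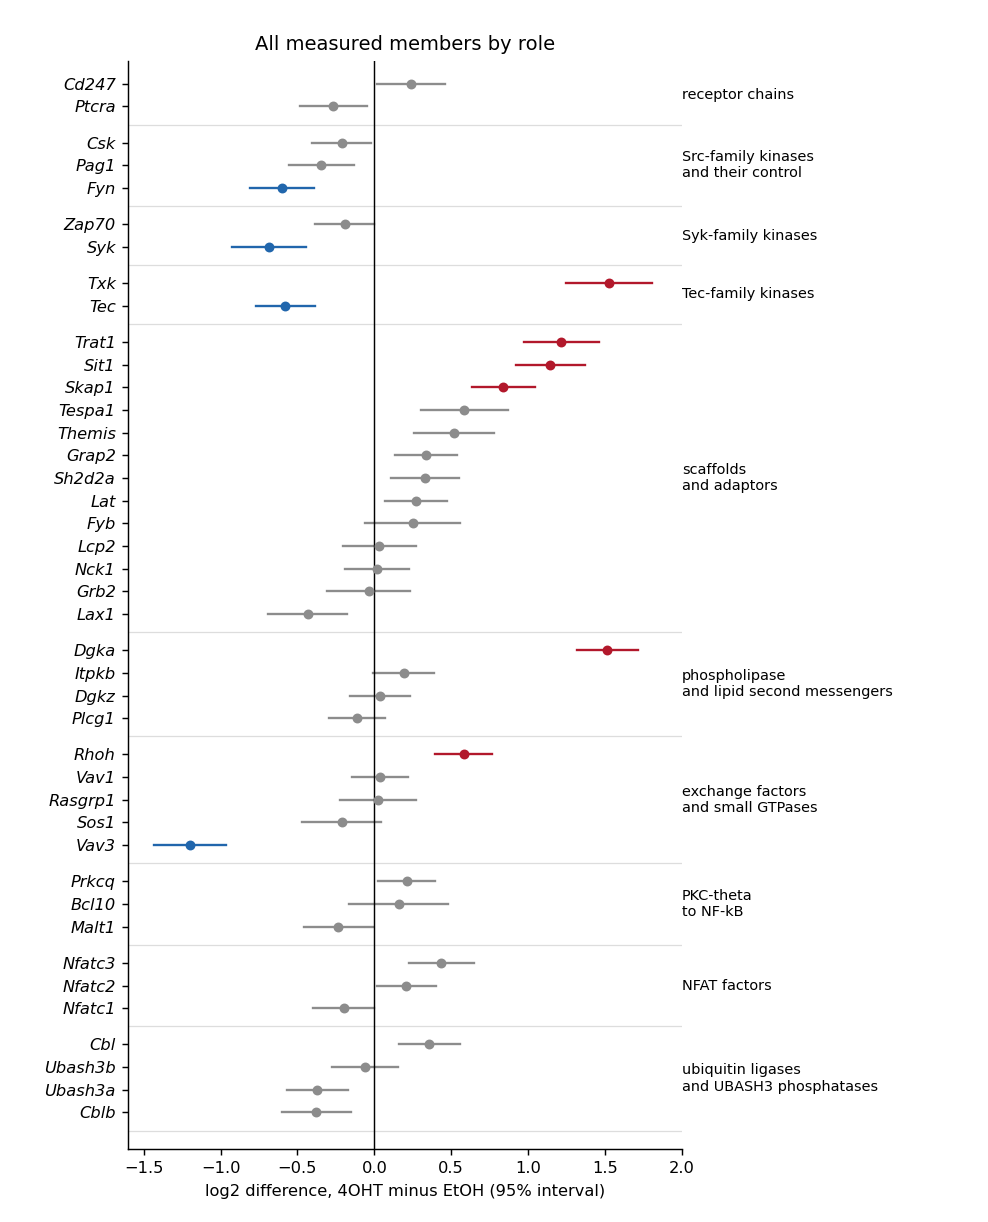
Log2 difference (4OHT minus EtOH, x axis) of each of the 41 measured members, grouped by role. Points are limma estimates from 2 arrays per treatment and bars their 95% intervals, red for genes that rose, blue for genes that fell and grey for the 31 that did not pass the test; *Txk* and *Dgka* lie farthest to the right (1.53 and 1.52) and *Vav3* farthest to the left (-1.20).

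These calls rest on both EtOH arrays. Without EtOH replicate 1 or EtOH replicate 2 limma called no member (21 and 22 at an unadjusted p under 0.05) and no gene at all (2819 and 2586 genes at an unadjusted p under 0.05), and the adjusted p of the 10 genes was 0.11 to 0.198 and 0.133 to 0.202. Without 4OHT replicate 1 or 4OHT replicate 2 fewer of the 10 genes passed the test, and a smaller share of all genes did too. When any 1 array was left out, the log2 difference of *Dgka* stayed between 1.47 and 1.56. That of *Vav3* stayed between -1.28 and -1.12. Each of these fits had 1 residual degree of freedom, and all 10 genes kept their direction in each. Over the probe sets with a single gene name the number of called members was 20 (12 higher and 8 lower), against 13.7% of all genes. That fit called the same 10 and in addition *Cbl*, *Grap2*, *Nfatc3*, *Sh2d2a*, *Tespa1* and *Themis* as higher and *Cblb*, *Lax1*, *Pag1* and *Ubash3a* as lower.

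**Figure D2:**
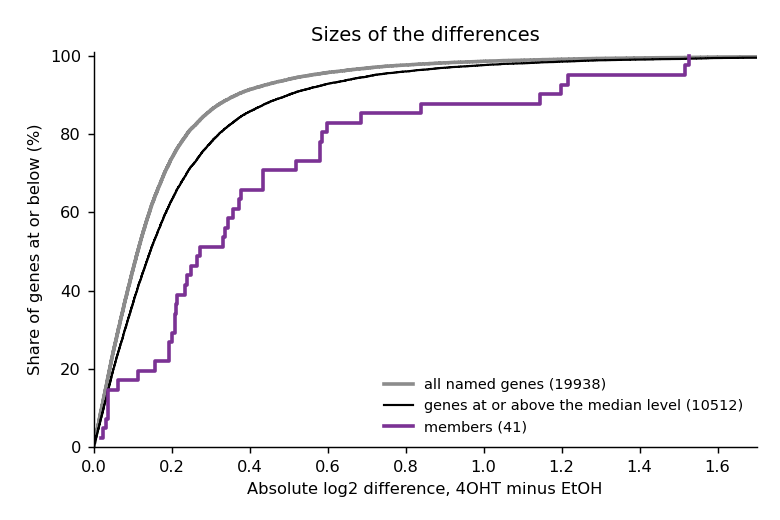
Cumulative share (%) of genes whose absolute log2 difference between treatments is at or below the value on the x axis, for the 41 members (purple), all 19938 named genes (grey) and the 10512 genes at or above the array medians (black). The members' curve lies to the right of both others over most of the range, with medians of 0.27, 0.11 and 0.15.

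The promoter sequences of the 5 genes that changed by at least 2-fold, and of *Tec*, which lies next to *Txk*, are printed here so that the reader can set them beside the values that follow. They are RefSeq windows of the mouse assembly GRCm38.p6, from 250 bases before to 50 bases after the start farthest upstream, written in the direction of transcription. Capitals mark AGGAA and GGGAA, short cores that are known from sites to which Ikaros binds, on either strand (TTCCT and TTCCC on the other).
Txk (chr5:72752728-72753027, - strand): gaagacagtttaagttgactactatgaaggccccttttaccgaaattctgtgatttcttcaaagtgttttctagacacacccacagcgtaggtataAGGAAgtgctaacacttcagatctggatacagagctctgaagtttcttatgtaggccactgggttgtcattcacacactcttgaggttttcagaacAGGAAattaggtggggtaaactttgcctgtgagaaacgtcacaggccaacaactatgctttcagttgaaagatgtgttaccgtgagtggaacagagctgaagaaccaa
Dgka (chr10:128745035-128745334, - strand): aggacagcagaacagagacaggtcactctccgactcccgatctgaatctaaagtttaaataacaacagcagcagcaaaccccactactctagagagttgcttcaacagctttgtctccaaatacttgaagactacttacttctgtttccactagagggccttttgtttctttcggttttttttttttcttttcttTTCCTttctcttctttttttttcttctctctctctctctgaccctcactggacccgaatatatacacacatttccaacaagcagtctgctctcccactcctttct
Trat1 (chr16:48772013-48772312, - strand): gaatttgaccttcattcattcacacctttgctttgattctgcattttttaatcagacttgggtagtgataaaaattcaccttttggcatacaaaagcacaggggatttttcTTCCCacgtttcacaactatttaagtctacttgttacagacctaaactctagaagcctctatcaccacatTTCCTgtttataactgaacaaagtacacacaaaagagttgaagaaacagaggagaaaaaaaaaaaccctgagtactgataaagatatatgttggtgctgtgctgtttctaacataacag
Sit1 (chr4:43483660-43483959, - strand): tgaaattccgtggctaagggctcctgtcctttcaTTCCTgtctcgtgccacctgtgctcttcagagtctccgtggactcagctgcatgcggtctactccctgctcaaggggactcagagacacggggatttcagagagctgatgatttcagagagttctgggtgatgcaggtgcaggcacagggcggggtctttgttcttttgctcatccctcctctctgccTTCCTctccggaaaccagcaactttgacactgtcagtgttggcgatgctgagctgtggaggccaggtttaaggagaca
Vav3 (chr3:109340433-109340732, + strand): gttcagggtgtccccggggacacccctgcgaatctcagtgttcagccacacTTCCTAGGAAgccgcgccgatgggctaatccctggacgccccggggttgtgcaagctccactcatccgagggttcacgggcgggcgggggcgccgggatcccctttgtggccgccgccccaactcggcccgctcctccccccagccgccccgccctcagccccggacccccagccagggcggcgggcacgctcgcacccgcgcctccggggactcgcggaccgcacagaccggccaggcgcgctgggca
Tec (chr5:72868399-72868698, - strand): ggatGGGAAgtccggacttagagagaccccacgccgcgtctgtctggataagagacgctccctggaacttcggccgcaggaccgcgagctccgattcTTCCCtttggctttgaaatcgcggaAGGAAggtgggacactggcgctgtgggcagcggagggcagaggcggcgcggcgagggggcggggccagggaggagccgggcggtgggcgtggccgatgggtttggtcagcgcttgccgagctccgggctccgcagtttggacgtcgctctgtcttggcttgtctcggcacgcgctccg
The windows of *Txk*, *Dgka*, *Trat1* and *Sit1* held 2, 1, 2 and 2 matches, and those of *Vav3* and *Tec* held 2 and 3. In the *Vav3* window the 2 matches adjoin on opposite strands. A window was found for 35 of the 41 measured members, of which 5 had risen and 4 had fallen. AGGAA was present on either strand in all 5 windows of genes that rose, in 2 of 4 of genes that fell, in 24 of 26 of the other measured members and in 66.8% of the windows of 27025 genes. GGGAA was present in 2 of 5, 1 of 4 and 14 of 26, and in 62.4% of all. Such short runs of letters occur in most windows, and a match does not show that Ikaros binds there.

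Among the kinases, both measured Tec-family members changed, in opposite directions. These kinases phosphorylate and activate phospholipase C-γ1. *Txk* (probe set 10530516) had log2 values of 7.22 and 7.01 on the EtOH arrays and of 8.58 and 8.70 on the 4OHT arrays. It was thus near the array medians with EtOH and clearly above them on both 4OHT arrays, 2.88-fold higher (95% interval 2.37- to 3.50-fold, log2 difference 1.53, standard error 0.11, adjusted p = 0.0123). *Tec* (probe set 10530536) had values of 8.36 and 8.29 with EtOH and of 7.75 and 7.74 with 4OHT. Its 4OHT arrays were alike and below both EtOH arrays, a 1.50-fold lower level (log2 difference -0.58, standard error 0.073, adjusted p = 0.0348). *Txk* and *Tec* are direct neighbours on chromosome 5 in the RefSeq annotation and are transcribed in the same direction, as the windows above show.

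Of the Src-family kinases and their control, *Fyn* fell. *Fyn* (probe set 10362596), which acts beside Lck at the receptor, had values of 11.03 and 11.14 with EtOH and of 10.49 and 10.47 with 4OHT. Both 4OHT arrays lay more than 0.5 below both EtOH arrays, a 1.51-fold lower level (log2 difference -0.60, standard error 0.079, adjusted p = 0.0379). *Pag1*, a membrane adaptor that brings Csk to Src-family kinases, had a log2 difference of -0.34 (adjusted p = 0.116). *Csk*, which phosphorylates the inhibitory tyrosine of these kinases, had a difference of -0.21 (adjusted p = 0.238). In both genes the 4OHT arrays were below the EtOH arrays without passing the test.

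Of the Syk-family pair, *Syk* fell and *Zap70* did not pass the test. *Zap70* (probe set 10345509), the kinase that T cells use at the phosphorylated receptor, had values of 10.42 and 10.49 with EtOH and of 10.28 and 10.25 with 4OHT. The groups did not overlap, but the difference was small and did not pass the test (log2 difference -0.19, 95% interval -0.39 to -0.0001, adjusted p = 0.27). *Syk* (probe set 10405216), which serves the pre-T-cell receptor in early thymocytes and the receptor of B cells, had values of 7.41 and 7.23 with EtOH and of 6.64 and 6.63 with 4OHT. It fell 1.61-fold (log2 difference -0.69, standard error 0.091, adjusted p = 0.0385). Its 4OHT values are below the array medians, and without detection calls they cannot be told from background.

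Neither of the receptor chains among the members, *Cd247* and *Ptcra*, passed the test. *Cd247* (probe set 10351353), which encodes the ζ-chain with its paired tyrosine motifs, had values of 9.96 and 9.83 with EtOH and of 10.10 and 10.17 with 4OHT. *Ptcra* (probe set 10451465), which encodes pre-Tα, had values of 11.05 and 11.15 with EtOH and of 10.78 and 10.89 with 4OHT. The first was higher on both 4OHT arrays and the second lower, and neither passed the test (log2 differences 0.24 and -0.27, 95% intervals 0.01 to 0.46 and -0.48 to -0.05, adjusted p = 0.248 and 0.198). The 3 CD3 chain genes, which are not members, were lower on both 4OHT arrays: *Cd3d* fell 1.92-fold (adjusted p = 0.0172), and *Cd3g* and *Cd3e* had log2 differences of -0.49 and -0.31 (adjusted p = 0.0651 and 0.115). Of 7 co-receptor and accessory receptor genes, *Cd4*, *Cd8a*, *Cd8b1*, *Cd2*, *Cd5* and *Cd6* rose and *Cd28* did not pass the test, where 4.23% of all genes were called. The fitted log2 differences of these 10 genes ran from -0.94 to 4.32, the latter for *Cd8a*, which like *Cd6* lay below the array medians with EtOH, where values cannot be told from background.

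**Figure D3:**
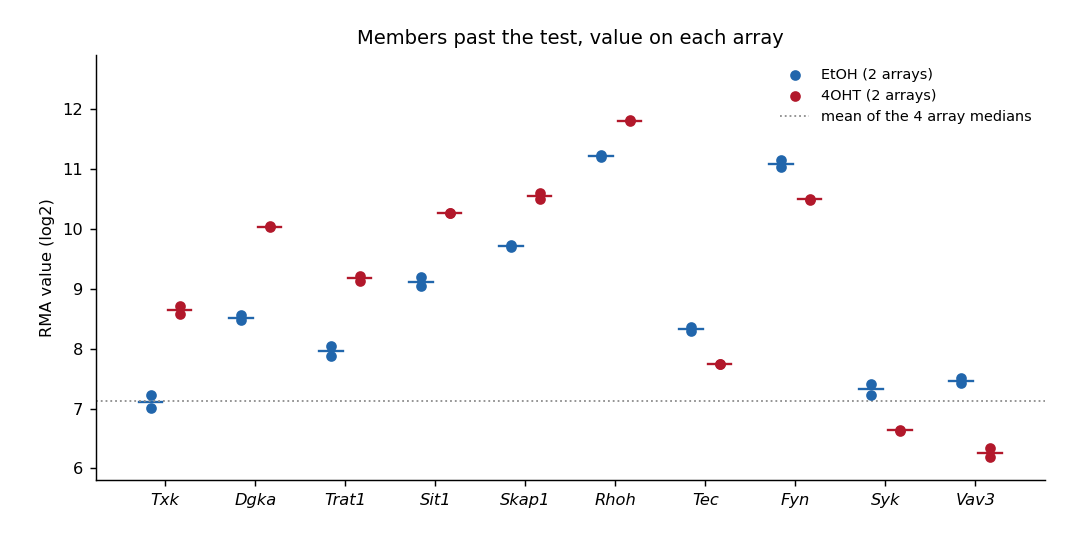
RMA values (log2, y axis) of the 10 members that passed the test, with a blue point per EtOH array and a red point per 4OHT array, with short lines at the means and a dotted line at the mean of the array medians. In each gene the 2 red points lie to one side of the 2 blue points, above them in the 6 genes on the left, and the 4OHT points of *Syk* and *Vav3* lie below the dotted line.

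Of 13 scaffolds and adaptors, 3 rose and 10 did not pass the test, with a median log2 difference of 0.33. *Trat1* (probe set 10439790), which encodes the transmembrane adaptor TRIM found with the receptor complex, had values of 7.87 and 8.04 with EtOH and of 9.13 and 9.21 with 4OHT. It was 2.32-fold higher (95% interval 1.96- to 2.75-fold, log2 difference 1.22, standard error 0.093, adjusted p = 0.015). *Sit1* (probe set 10512480) encodes a transmembrane adaptor that dampens receptor signals, and it had values of 9.04 and 9.19 with EtOH and of 10.26 and 10.27 with 4OHT. Its 4OHT arrays were nearly equal, and the level was 2.21-fold higher (95% interval 1.90- to 2.58-fold, log2 difference 1.15, standard error 0.085, adjusted p = 0.0141). *Skap1* (probe set 10380672), whose product works with ADAP in integrin activation, had values of 9.68 and 9.73 with EtOH and of 10.60 and 10.49 with 4OHT, and rose 1.79-fold (log2 difference 0.84, standard error 0.078, adjusted p = 0.0189).

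No gene of the signalosome core passed the test. *Lat* (probe set 10567825), the membrane scaffold, had values of 12.49 and 12.59 with EtOH and of 12.82 and 12.80 with 4OHT. Both 4OHT arrays were higher, without passing the test (log2 difference 0.27, 95% interval 0.07 to 0.47, adjusted p = 0.164). *Grap2*, which encodes the GADS adaptor that links SLP-76 to LAT, had a difference of 0.34 (adjusted p = 0.115). In a limma fit on 1 mean value per named gene, *Lat* and *Grap2* passed (adjusted p = 0.0461 and 0.0174). Each has 1 probe set, so that their differences were unchanged there. That fit had 9.11 prior degrees of freedom, against 2.66 in the main fit, and called 14.4% of all genes. The groups overlapped for *Lcp2* (SLP-76), *Grb2* and *Nck1*, with differences of 0.033, -0.037 and 0.018 and 95% intervals between -0.31 and 0.27. *Fyb*, which encodes ADAP, differed by 0.25 (adjusted p = 0.351), and *Sh2d2a*, which encodes the Lck-binding adaptor TSAd, by 0.33 (adjusted p = 0.138). *Tespa1* and *Themis*, which are needed for thymocyte selection, had differences of 0.59 and 0.52 and stood near the threshold (adjusted p = 0.0745 and 0.0782). *Lax1*, a transmembrane adaptor that inhibits signalling, had the only difference of this group below -0.1, at -0.43 (adjusted p = 0.112).

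Of the enzymes that make and remove lipid second messengers, *Dgka* had the smallest adjusted p of all members. Diacylglycerol kinase-α turns the diacylglycerol made by phospholipase C-γ1 into phosphatidic acid and so ends its signal to Ras and PKC-θ. *Dgka* (probe set 10373542) had values of 8.56 and 8.47 with EtOH and of 10.03 and 10.04 with 4OHT. The smallest gap between a 4OHT and an EtOH array was 1.47, and the level was 2.86-fold higher (95% interval 2.50- to 3.28-fold, log2 difference 1.52, standard error 0.075, adjusted p = 0.0084). The related *Dgkz* differed by 0.038 and 0.048 on its 2 probe sets (adjusted p = 0.823 and 0.809), with a 95% interval of -0.16 to 0.23 for the brighter. *Plcg1*, which encodes phospholipase C-γ1, differed by -0.11 (adjusted p = 0.457), and *Itpkb*, whose product phosphorylates inositol trisphosphate, by 0.19 (adjusted p = 0.282).

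Among exchange factors and GTPases, *Vav3* fell and *Rhoh* rose. *Vav3* (probe set 10495416), an exchange factor gene, had values of 7.50 and 7.42 with EtOH and of 6.34 and 6.19 with 4OHT. It was 2.30-fold lower (95% interval 1.95- to 2.70-fold, log2 difference -1.20, standard error 0.089, adjusted p = 0.0141), and its 4OHT values too lie below the array medians. *Vav1*, the family member that acts in most blood cells, had values of 10.63 and 10.62 with EtOH and of 10.65 and 10.67 with 4OHT (log2 difference 0.036, 95% interval -0.15 to 0.22). *Rhoh* (probe set 10522182), whose product helps ZAP-70 to reach the receptor, had values of 11.23 and 11.20 with EtOH and of 11.79 and 11.81 with 4OHT. Its replicates differed by less than 0.1, and it rose 1.50-fold (log2 difference 0.58, standard error 0.07, adjusted p = 0.0324). The Ras exchange factor genes *Rasgrp1* and *Sos1* differed by 0.024 and -0.21 (adjusted p = 0.919 and 0.344).

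No gene of the distal branches or of the ubiquitin ligase group passed the test. *Nfatc3* was higher on both 4OHT arrays (log2 difference 0.44, adjusted p = 0.0755), as was *Nfatc2* (0.21, adjusted p = 0.245), and *Nfatc1* was lower (-0.20, adjusted p = 0.27). These encode the calcium-regulated NFAT factors. *Prkcq*, which encodes PKC-θ, and *Malt1* and *Bcl10*, which carry its signal to NF-κB, differed by 0.21, -0.23 and 0.16 (adjusted p = 0.231, 0.255 and 0.549). The ubiquitin ligase genes *Cbl* and *Cblb*, whose products mark receptor and kinases for removal, differed in opposite directions, by 0.36 and -0.38 (adjusted p = 0.0942 and 0.111). *Ubash3a*, a gene for a phosphatase-like inhibitor of receptor signalling, differed by -0.37 (adjusted p = 0.0885). Its relative *Ubash3b* was dim, with means of 5.63 and 5.57, both below the array medians. Differences of the 31 members that did not pass ranged from -0.43 to 0.59. Their groups did not overlap in 24 cases, 13 higher and 11 lower, beside 56.6% of all genes and 64.3% of those at or above the array medians.

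The nearest measured genes on either side of the 10 called genes were examined too. Among 20 neighbouring positions, 1 on each side of each gene, 3 held a called gene, where 4.23% of all genes were called. They were *Txk* and *Tec* beside each other, and *Chrna9*, an acetylcholine receptor subunit gene beside *Rhoh*. *Txk* and *Tec* are themselves among the 10 called genes, so that their positions add no further call. *Chrna9* rose, with treatment means of 7.05 (EtOH) and 8.39 (4OHT; log2 difference 1.34, adjusted p = 0.0105), in the direction of *Rhoh*. The remaining neighbours had differences between -0.11 and 0.30, including *Cdk2* beside *Dgka* (0.30, adjusted p = 0.256).

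Of 58 further genes of the pathway, 46 were measured, of which 3 rose, 1 fell and 42 did not pass the test. Thus 8.7% were called, beside 4.23% of all genes and 7.29% of those at or above the array medians. Their median log2 difference was 0.087. *Sla2* encodes the adaptor SLAP-2, which works with Cbl in receptor removal, and it had values of 10.01 and 10.15 with EtOH and of 11.30 and 11.35 with 4OHT, 2.37-fold higher (log2 difference 1.24, adjusted p = 0.0109). *Inpp5d*, the gene of the lipid phosphatase SHIP1, rose 1.85-fold (adjusted p = 0.0279), and *Pik3r1*, the gene of a regulatory subunit of phosphatidylinositol 3-kinase, 1.50-fold (adjusted p = 0.0392). *Orai1*, which encodes the pore of the store-operated calcium channel, fell 1.42-fold (adjusted p = 0.0421). No increase among these passed without EtOH replicate 1, EtOH replicate 2 or 4OHT replicate 2, and *Orai1* did not pass without any 1 of the 4 arrays.

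Of 37 genes that receptor signals induce, none rose, 3 fell and 34 did not pass by limma. Thus 8.11% were called, where 4.23% of all genes were, and 12 genes had an unadjusted p under 0.05 in either direction. Their median log2 difference was 0.077. *Jun*, a subunit gene of AP-1, had values of 10.03 and 9.68 with EtOH and of 8.45 and 8.21 with 4OHT, 2.88-fold lower (log2 difference -1.52, adjusted p = 0.0223). *Irf4* fell 2.21-fold (adjusted p = 0.0147) and *Id3*, an inhibitor of E proteins, 1.57-fold (adjusted p = 0.0367). The 4OHT values of *Irf4*, 6.83 and 6.86, are below the array medians and cannot be told from background. The groups did not overlap for 17 target genes that were higher with 4OHT and 12 that were lower, the called ones included. That is 78.4% of the target genes, beside 56.6% of all genes and 64.3% of those at or above the array medians. Among immediate-early genes that did not pass, *Egr1*, *Egr2*, *Egr3* and *Nr4a1* had log2 differences of 0.25, 0.23, 0.20 and 0.30 (adjusted p = 0.367, 0.309, 0.325 and 0.166), and *Ier2* one of -0.35 (adjusted p = 0.342). *Tnfaip3*, an inhibitor of NF-κB signalling, and *Icos*, a co-stimulatory receptor, had differences of -0.46 and -0.55 (adjusted p = 0.0928 and 0.196). *Cd69*, an early activation marker, had values of 6.92 and 6.46 with EtOH and of 7.64 and 8.03 with 4OHT (log2 difference 1.15, adjusted p = 0.0747). Without EtOH replicate 1, EtOH replicate 2 or 4OHT replicate 2 no target gene was called lower.

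**Figure D4:**
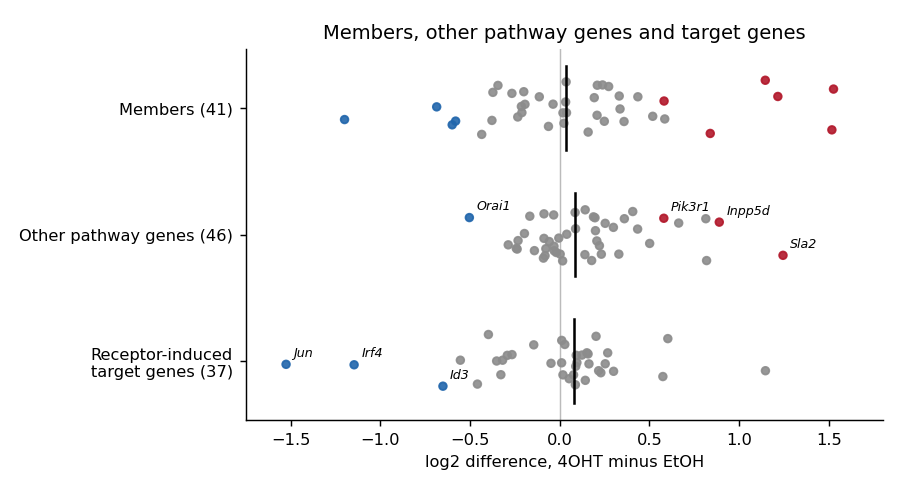
Log2 difference (4OHT minus EtOH, x axis) of the 41 members, 46 other pathway genes and 37 target genes. Points are genes, spread vertically for legibility, with red for a rise, blue for a fall and grey otherwise, and black lines mark medians of 0.036, 0.087 and 0.077; the called genes of the lower 2 rows are named.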

How the data were processed

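The authors hybridised biotin-labelled cDNA from 150 ng of total RNA of each sample to Affymetrix Mouse Gene ST 1.0 arrays. They deposited, as log2 values made by the authors, 35556 probe sets on each of 4 arrays. Expression Console 1.1 of Affymetrix and RMA are named in the submitters' processing notes. RMA removes background, gives the probe values of the arrays one distribution and then sums the probes up. The probe set values need not share one distribution. A change common to most genes is therefore hidden, and small signals are compressed. The genome build was not given in the sources used here.

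Groups and replicate numbers were read from the sample titles. Of the probe sets, 21789 had a single gene symbol in the array annotation, 1621 several and 12146 none. Symbols were updated by Entrez number through RefSeq (GRCm38.p6), with 21698 matched. 4OHT was compared with EtOH over all probe sets in R 4.3.3 with limma 3.58.1 (lmFit, eBayes, two-sided, no block or filter, 2 residual and 2.66 prior degrees of freedom), with Benjamini-Hochberg adjustment. Intervals of 95% come from the same fit. With 2 arrays a treatment, the smallest p of an exact two-sided permutation test is 0.33. The number of arrays limits the precision.

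Every member was named, with values on all arrays for called ones and for *Cd247*, *Ptcra*, *Zap70* and *Lat*. Every called gene of the further pathway and target lists was named too. *Cd69*, *Egr1*, *Egr2*, *Egr3*, *Nr4a1*, *Ier2*, *Tnfaip3*, *Icos*, the CD3 and co-receptor genes and the neighbouring genes were added after their values were seen. The members and lists were chosen with earlier results of these data known. The script was tested on simulated data in this design, with 200 of 35556 probe sets changed. With 50 changed by each size, it recovered 0% of those changed by 0.5 on the log2 scale, 48% by 1, 94% by 2 and 98% by 3, with 9 false calls. In the data 1123 probe sets (3.16%) were called, more than were changed in the simulation. The Benjamini-Hochberg cut-off depends on that share, so that the recovered shares need not hold for the data.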

Additional observations from a re-analysis of the deposited data

How the results depend on the processing

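The alternatives were a block for the sample number, a second quantile normalization, arrays brought to equal medians, a floor of 6 on the mean value, probe sets with a single symbol, an intensity trend, averaging over the probe sets of each gene, an adjusted p under 0.01 and each array left out in turn. All 10 called genes kept their direction under each of them, and the same 10 passed under 6: the second quantile normalization, equal medians, the minimum of 6, a single symbol, the trend and the mean of probe sets. Members called higher and lower numbered 12 and 8 with a single symbol, where limma's prior degrees of freedom were 8.44, 13 and 8 with the mean of probe sets, and 1 and 0 at an adjusted p under 0.01. Of all genes 13.7%, 14.4% and 0.366% were called under these settings, and 7.78% with the minimum of 6. With the intensity trend limma called 8 members higher and 4 lower, beside 4.61% of all genes. It added *Nfatc3* and *Cbl* to the 10 (adjusted p = 0.0378 and 0.0466). The counts of all lists are to be read beside these shares. With the replicate block the members called were 0 and 0 (23 members at an unadjusted p under 0.05), beside 0.15% of all genes. The labels do not say whether same-numbered arrays were paired. Deviations of same-numbered arrays correlated at r = -0.134 over all probe sets. These are not independent, so that the value cannot decide whether the arrays were paired. Crossed numbers, added after seeing the data, gave 5 and 1 members, 2 and 0 other pathway genes, and 1 and 2 target genes. Of all genes 2.68% were then called. Leaving out any array lowered the number of members called, and a smaller share of all genes was then called too. Other pathway genes called higher numbered 5 with the minimum of 6, 12 with a single symbol, 12 with the mean of probe sets and 0 with the block or at 0.01, and 0 to 1 without an array. Those called lower numbered 2 with the mean of probe sets and 0 with the block, the second quantile normalization, the trend, at 0.01 and without any array. Target genes called higher numbered 1 with the minimum of 6 and 4 with a single symbol or the mean of probe sets. Those called lower numbered 6 with a single symbol, 7 with the mean of probe sets, 0 with the block and at 0.01, and 0 to 2 without an array. The causes of these shifts were not tested. The members' median log2 difference was 0.0877 after the second quantile normalization, while the median of all genes was 0.024. Near 0, the sign turned for *Grb2* after the second quantile normalization (0.0163) and for *Nck1* with equal medians (-0.004). It also turned when an array was left out. *Lcp2* then ranged from -0.0565 (without 4OHT replicate 1) to 0.1225, and *Grb2* from -0.1204 to 0.0462 (above 0 without EtOH replicate 1 or 4OHT replicate 1). *Nck1* ranged from -0.0262 to 0.0624 (below 0 without either of the same arrays), *Dgkz* from -0.0034 (without EtOH replicate 2) to 0.079, and *Rasgrp1* from -0.07 to 0.1171 (below 0 without EtOH replicate 1 or 4OHT replicate 1). None of these 5 genes was called under any of these settings. Dim genes such as *Ubash3b*, and changes that start or end below the array medians, are limited by signal over background, since the values carry no detection calls.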
